A study of Homo sapiens with 20 samples.

Results

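The short grid is a run of 120 guide RNAs, uid_4720 to uid_4839, in the table of a pooled screen in A375 cells. It is 120 of the 6211 guides of that table and of 81745 guide lines in the 4 tables of the series. The members were taken by their numbers alone. They follow 39 complete grids of 11 rows by 11 columns (4719 guides) and precede 1372 guides without that order, and they are 1 guide short of a full grid. The grid order is not described in the labels and was found in earlier results of these data. The labels call the screen a dual titration and do not say what was titrated, so rows and columns are called by their order, and the table used here names guides by number, without sequence or gene.

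Cas13d is an RNA-guided nuclease that cuts transcripts matching its guide RNA and leaves the DNA untouched. In a pooled screen each cell carries a guide cassette in its genome, so a guide that slows growth or kills its cell becomes rarer among the cassettes read from genomic DNA.

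The compared groups were 3 libraries at day 14 and 3 libraries at day 0 of doxycycline-induced, nuclear RfxCas13d in A375, a melanoma line. All 6 came from puromycin-selected cells that had received the same lentiviral library in separate infection replicates, and the p-values below measure the spread between these replicates. The deposited signal of every guide was 1 plus a whole multiple of a step particular to each library. The steps, which stand for reads, totalled 494672 to 873999 at day 14 and 868384 to 1684142 at day 0. At day 14 the lowest level of a library, 1 step, held 469 to 482 guides of the table, and whether it stands for 1 read or for none is not settled. The other libraries of the 20 in the series came from other guides, cells or nucleases and were not used here.

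Most of the short grid was lost by day 14. Change below means the mean log2 signal at day 14 less that at day 0, with the values as deposited. By limma with Benjamini-Hochberg adjustment over all 6211 guides, 82 of 120 members (68.3%) fell, against 51.2% of all guides in the table, 2 rose, against 1.63% of all guides, and 36 did not pass the threshold of 0.05. The balance rests in part on the scaling: with a trimmed mean over all guides, which raises every change by 1.41, 66 members fell and 26 rose, where 34.6% of all guides fell and 38.8% rose. With total signal scaling 73 members fell and 12 rose, where 41.9% of all guides fell and 18.3% rose. Scaling by the median of the guides after the grids, which moved by -0.02 between the days, gave 82 lower and 3 higher members. Of all 6211 guides, 3166 fell and 118 rose with that scaling. The median change was -3.77 over the members, -2.18 over the guides of the 39 complete grids and -1.15 over all guides of the table. The mean of the members was -3.08, -3.04 and -3.00 in the 3 day 14 libraries set against the day 0 mean, or -3.04 ± 0.04 (SD, n = 3).

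The members fell into a lost part and a part near 0, with fewer between. A change below -4 was found for 55 members (45.8%), against 28.5% of the guides of the 39 complete grids. Between -1 and 1 lay 34 members (28.3%), against 34.4% of the guides of the 39 complete grids. Between -4 and -1 lay 28 members, and above 1 lay 3. The median day 14 signal of the members was 9.86, 10.2 and 12.0, against 105, 109 and 115 at day 0. At day 14, 36, 33 and 39 members stood at the lowest level of the library, and 17 members stood there in all 3 libraries. For these 17 the size of the fall has only a bound, from 18.0-fold to 40.9-fold at least, taken against a floor of 3 steps per library. With them at their bound the median of the members stayed at -3.77 and the mean was -2.90.

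The order along the numbers was steep. In rows 1 to 7, which hold 77 members and whose places do not depend on where the absent guide lies unless it lies among them, 0 of 21 members in columns 1 to 3 fell by limma and 1 rose, 24 of 28 in columns 4 to 7 fell, and 28 of 28 in columns 8 to 11 fell. With the trimmed mean scaling 16 of the 21 members in columns 1 to 3 rose, 13 of 28 in columns 4 to 7 fell and 2 rose, and 28 of 28 in columns 8 to 11 fell. The median change was 0.07 in columns 1 to 3, -2.96 in columns 4 to 7 and -5.26 in columns 8 to 11. Columns 1 to 3 ranged from -0.79 to 1.73 and columns 8 to 11 from -6.35 to -3.32, so these ranges did not meet. The 4 members of columns 4 to 7 that did not pass the test lay in rows 1, 2 and 4.

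Row 1 had losses in its later columns. Its first guide, uid_4720, had a signal of 54.1, 49.3 and 92.8 at day 14, against 92.0, 111.8 and 70.5 at day 0. The days overlapped, and its change of -0.52 ± 0.48 (SE) did not pass the test (adjusted p = 0.415). The next 3 guides of the row, uid_4721, uid_4722 and uid_4723, also overlapped between days and had changes of -0.17, -0.05 and 0.17. In column 5, uid_4724 had 75.8, 67.7 and 46.2 at day 14, against 142, 163 and 130 at day 0, with every day 14 library below every day 0 library. It fell by 1.22 on the log2 scale (adjusted p = 0.022). This call was lost without day 0 replicate 1 (adjusted p = 0.0756), without day 0 replicate 2 (0.104), with total signal scaling (-0.45, adjusted p = 0.337) and with trimmed mean scaling (0.19, adjusted p = 0.672). In column 6, uid_4725 had 9.86, 24.8 and 32.0 at day 14, against 96.2, 103 and 108 at day 0, and fell by 2.36 (adjusted p = 0.00343), a call lost with trimmed mean scaling (-0.95, adjusted p = 0.15). The guide after it, uid_4726 in column 7, had a signal of 87.6, 84.6 and 46.2 at day 14, against 110, 129 and 139 at day 0. Its days did not overlap, and its change of -0.84 did not pass the test (adjusted p = 0.123).

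The last 4 guides of row 1 were strongly lost. The guide uid_4727 had 1.98, 9.43 and 12.6 at day 14, against 135, 86.0 and 105 at day 0, a change of -4.11 ± 0.65 (SE). The guides uid_4728, uid_4729 and uid_4730 changed by -3.94, -3.74 and -3.92. In none of the 4 did a day 14 library reach a day 0 library. Their mean was -3.93 ± 0.41 (SD over 3 day 14 libraries), against -3.40 ± 0.51 for the same places of the grid at uid_2300 to uid_2420 and -1.06 for the mean of the 39 complete grids.

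With the values as deposited, the guides that open a row lay near 0. In rows 2 to 7 these guides, uid_4731, uid_4742, uid_4753, uid_4764, uid_4775 and uid_4786, had changes of 0.55, 0.38, -0.73, -0.20, 0.75 and -0.04, and none passed the test. The largest of these, uid_4775, had 209, 270 and 223 at day 14, against 153, 152 and 113 at day 0. Its days did not overlap, and its adjusted p was 0.0545, or 0.0437 without day 14 replicate 1. With the trimmed mean scaling 5 of these 6 guides rose, all but uid_4753, and with total signal scaling uid_4731 and uid_4775 did. Over rows 1 to 7 columns 1, 2 and 3 averaged 0.03 ± 0.15, 0.03 ± 0.45 and 0.27 ± 0.17 (SD, n = 3 day 14 libraries), while the 39 complete grids averaged -0.04, -0.77 and -1.02 there.

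Later rows were lower where row 1 showed a partial loss. In columns 4 to 7 the mean change was -1.06 ± 0.21 in row 1, -1.75 ± 0.33 in row 2, -3.56 ± 0.68 in row 3, -2.84 ± 0.11 in row 4, -3.96 ± 0.45 in row 5, -3.35 ± 0.65 in row 6 and -4.02 ± 0.28 in row 7 (SD, n = 3 day 14 libraries). Rows 3 to 7 lay -2.14 ± 0.38 from rows 1 and 2 there, against a spread of 0.15 (SD) of the same difference between the day 0 libraries. In columns 8 to 11 the same difference was -1.25 ± 0.08, and in columns 1 to 3 it was 0.22 ± 0.42. The lower later rows were not particular to the short grid. In columns 4 to 7, 8 to 11 and 1 to 3 the grid at uid_2300 to uid_2420 had -2.57, -1.55 and -0.07. The mean of the 39 complete grids had -1.42, -1.69 and -0.56 there, with 1, 0 and 5 of those grids above 0. Losses in columns 8 to 11 were near the depth that could be seen, since the lowest level of the day 14 libraries allows a median fall of -5.78 from the day 0 levels of the members.

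The columns did not fall in their numbered order. Over rows 1 to 7 the columns 4, 5, 6 and 7 averaged -1.25, -3.35, -4.54 and -2.60, so column 7 lay 1.94 ± 0.23 (SD, n = 3 day 14 libraries) above column 6. It lay above it in 7 of 7 rows. In the grid at uid_2300 to uid_2420 column 7 lay 1.06 ± 0.80 above column 6, in 6 of 7 rows. Over the mean of the 39 complete grids column 7 was lower than column 6, at -0.25, and it was higher in 12 of those grids.

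The 5 lowest members lay in rows 2, 3, 6 and 10. The guide uid_4752, the last of row 3, had the lowest level in all 3 day 14 libraries (1.98, 1.77 and 2.29), against 107, 154 and 263 at day 0. It was at least 40.9-fold lower at day 14. The guide uid_4784 in row 6 stood at the same 3 levels, against 109, 149 and 117 at day 0, and was at least 31.0-fold lower. The guide uid_4823 had 1.98, 2.53 and 2.29 at day 14, against 122, 120.8 and 409 at day 0, and its change was -6.33 ± 0.50 (SE). The guides uid_4828 and uid_4741 changed by -6.18 and -6.02, with 2 of 3 day 14 libraries at the lowest level in each. In all 5 the days did not overlap, which their choice as the lowest changes favours.

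Of the 120 members, 2 passed the test as more abundant at day 14, a share near the 1.63% of all guides. The guide uid_4788, in row 7 and column 3, had 226, 216 and 241 at day 14, against 100, 57.7 and 55.6 at day 0. It rose by 1.73 ± 0.36 (SE; adjusted p = 0.00121), and its adjusted p stayed between 0.00135 and 0.00678 with each library left out in turn. The guide uid_4808 had 68.9, 233 and 188 at day 14, against 57.0, 53.8 and 49.6 at day 0, and rose by 1.44 ± 0.51 (SE; adjusted p = 0.0306). This call was lost when any of the libraries except day 14 replicate 1 was left out, with adjusted p between 0.0561 and 0.109. The guides uid_4777 and uid_4831 were at 1.21 and 0.86 without passing the test, and so was uid_4776 at 0.79. Each passed with 1 library left out, uid_4777 without day 0 replicate 2, uid_4831 without day 14 replicate 3 and uid_4776 without day 14 replicate 2.

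The place of the absent guide could be read from the members themselves. Where a row ends in a lost guide and the next begins with one near 0, the change jumps upward. The 10 largest upward jumps between consecutive members were all at least 3.95, and the next was 2.61. The first 7 of them led to uid_4731, uid_4742, uid_4753, uid_4764, uid_4775, uid_4786 and uid_4797, each 11 numbers after the one before. The next led to uid_4807, only 10 numbers later, and the last to uid_4818 and uid_4829, again 11 apart. In the grid at uid_2300 to uid_2420 the 10 largest jumps all led to row starts, 11 numbers apart throughout. This was so in 7 of the 39 complete grids, and the median grid had 9 of its 10 largest jumps at row starts. Read by the jumps, row 8 of the short grid, from uid_4797 to uid_4806, held 10 guides where the other rows held 11.

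Set against the earlier grid at uid_2300 to uid_2420, the same member changes also pointed to row 8. With the members aligned in order from the first guide of each grid, so that the absent guide would be the last, the change correlated with that grid at a Pearson's r of 0.861 across 120 places, which are not replicates and share the same 6 libraries. With the absent place put first, r was 0.662. Over every possible absent place r was highest, at 0.943, for place 82, in row 8 and column 5. The places of row 8 gave r between 0.937 and 0.943, so the column of the absent guide was hardly resolved. The last place of row 7 gave 0.919 and the first of row 9 gave 0.914. The place means of the 39 complete grids pointed to column 4 of row 8. With each replicate number alone the best places were 82, 81 and 83. Since the best of all places was taken, this r is a description of the fit that was chosen. It rests on the same member changes as the jumps, so it is no separate evidence for row 8.

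Rows 1 to 7 and the members after them each matched the earlier grid once row 8 was taken as short. Over the 77 members of rows 1 to 7, r was 0.944. It lay between 0.805 and 0.859 when the changes of the 2 grids came from different replicate numbers (6 combinations), which share no library. Over the 43 members after row 7, r was 0.717 by number and 0.941 with place 82 absent. Place 82 was chosen for the highest r with this grid, and only members after row 7 move with it. The choice thus favours the higher value. Among the other complete grids the highest r over rows 1 to 7 was 0.806, for the grid at uid_3873 to uid_3993. After the place means of the 39 grids were removed, r over rows 1 to 7 was 0.866 with the grid at uid_2300 to uid_2420 and at most 0.487 with another grid. After row and column means were removed from each grid, r over rows 1 to 7 was 0.530. The 19 complete pairs of grids 20 apart in order had r from 0.675 to 0.923 over their places, with a median of 0.884. Over rows 1 to 7 these pairs had r from 0.191 to 0.924, with a median of 0.870. After removal of the place means they had r from 0.538 to 0.905 over all places, with a median of 0.678.

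The difference in day change was tested between paired guides of grids 20 apart. It was fitted by limma on the log2 ratio of the 2 guides in each library, so the scaling of the libraries cancels. Aligned by number, 3 pairs of all such pairs in the table differed with the later guide higher (0.124%) and 0 with the later guide lower (0.00%), where 154 and 173 had an unadjusted p under 0.05. All 3 were members, namely uid_4807, uid_4818 and uid_4829, the last column of rows 8 to 10 by number. The guide uid_4807 had 122, 117 and 128 at day 14, against 90.4, 68.0 and 103 at day 0, a change of 0.51 that did not itself pass the test against day 0. Its counterpart by number, uid_2387, changed by -5.34, which gives a difference of 5.85 (adjusted p = 0.00817).

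The same held for the next 2. The guide uid_4818 had 72.8, 99.1 and 122 at day 14, against 91.2, 110.5 and 93.7 at day 0, and its difference from uid_2398 was 5.34 (adjusted p = 0.00817). The guide uid_4829 had 152, 91.5 and 79.8 at day 14, against 120, 68.0 and 65.3 at day 0, and its difference from uid_2409 was 5.26 (adjusted p = 0.0227). All 3 are the guides that open rows 9 to 11 once row 8 is taken as short. By number they are thus set against row ends of the earlier grid. They had already been read as row starts from the same changes, so these calls are no separate evidence for the short row. Against the row openers of the earlier grid, uid_2388, uid_2399 and uid_2410, their differences were -0.50, -0.66 and 0.63, values that the choice of the short row favours. With a replicate block the adjusted p of uid_4829 was 0.0783, and 2 pairs differed. The number of members that differed from their counterpart by number was 0 without day 0 replicate 1, 2 or 3, without day 14 replicate 1 or without day 14 replicate 3, and 2 without day 14 replicate 2, while the 3 differences stayed between 4.87 and 6.03.

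With place 82 absent, 0 pairs differed by limma in either direction (0.00% lower and 0.00% higher), among the members or elsewhere in the table. An unadjusted p under 0.05 was found for 4 of 120 members (3.33%), 1 lower and 3 higher, against 13.4% of all pairs. The standard error of a pair had a median of 0.648 among the members, which limits the size of difference that a single pair can show. Where both guides stood at the lowest level at day 14, a pair could show only a difference in day 0 level. In 1 or more day 14 libraries 56 members stood at that level. In the earlier grid 41, 38 and 39 guides did so in day 14 replicates 1, 2 and 3. The median of the absolute differences was 0.54 over the members, and 0.60 over the pairs of complete grids. The largest difference was that of uid_4788 above uid_2368, at 2.65 (adjusted p = 0.193 in this alignment and 0.171 by number). The alignment was chosen for likeness, which favours small differences after row 7. In rows 1 to 7, where by number and with place 82 absent are the same, the smallest adjusted p by number was 0.171.

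The members after row 7 can be described in the places that a short row 8 gives them. Row 8 was chosen from these same changes, so the likeness to rows 1 to 7 is no separate evidence for it. None of 12 members in columns 1 to 3 fell and 1 rose, 14 of 15 in columns 4 to 7 fell, and 16 of 16 in columns 8 to 11 fell, with median changes of -0.07, -4.08 and -5.44. In this reading the guides that open the 11 rows had changes from -0.77 to 0.75. Column 1 less column 11 over rows 1 to 10 was 5.41, and it was 3.85 by number. The 10 last members show the gradient within a row. They run from column 2 to 11 of row 11 in this reading, and from column 1 to 10 by number. The guides uid_4830 and uid_4831 had changes of -0.11 and 0.86 and did not pass the test, while uid_4832 changed by -2.78 and uid_4834 to uid_4839 by -5.93 to -4.06. The call of uid_4832 was lost with trimmed mean scaling (-1.36, adjusted p = 0.105). Of the others, uid_4834, uid_4836, uid_4837 and uid_4838 stood at the lowest level in all 3 day 14 libraries and were at least 21.5-fold, 20.6-fold, 27.4-fold and 30.5-fold lower. The guide uid_4833 had 1.98, 174 and 3.58 at day 14, against 82.0, 114 and 117 at day 0, so 1 library stood apart and the days overlapped. It fell by 3.27 (adjusted p = 0.0464), and its change was -5.27 without day 14 replicate 2. It did not pass the test without any of the other libraries, with adjusted p between 0.0735 and 0.198.

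The corners were compared with a sum of rows and columns. With place 82 absent, the first corner plus the last, less the ends of row 1 and column 1, was -1.65 ± 0.60 (SD over 3 day 14 libraries), against a spread of 1.24 (SD) between the day 0 libraries. It was -1.22 ± 0.81 in the grid at uid_2300 to uid_2420 and averaged -3.19 over the 39 complete grids, and counted from the lowest the short grid was in place 29 of 40. The end of row 1 was already at -3.92, and the last corner, uid_4839, was at -4.70 with 2 of 3 day 14 libraries at the lowest level. One row and column further in, the same sum was -1.07 ± 1.36 in the short grid, -2.83 ± 1.39 in the earlier grid and -1.42 over the mean of the 39 grids, so there the short grid lay within its spread of that mean.

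The short grid and the earlier grid also shared a low starting level, which the numbering did not use. The median day 0 signal of the members was 105, 109 and 115 in replicates 1, 2 and 3, that of the earlier grid 95.4, 96.3 and 112.4, and the medians of the other 38 grids ranged from 153 to 232, 150 to 226 and 165 to 268. The short grid was thus the second lowest of 40 grids and the earlier grid the lowest, and 119 of 120 members lay below the day 0 median of the guides in the 39 grids. The day 0 levels of single guides had little in common between the 2 grids (r = 0.222 across 120 places with place 82 absent). The log2 difference between a pair of libraries had an SD of 0.56 to 0.63 over the members at day 0 and of 1.35 to 1.51 at day 14. Across members the day 0 level and the change correlated at -0.281, a value in which the day 0 level enters both sides.

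The 2 grids lost guides to a like extent. The mean change was -3.04 ± 0.04 over the members and -3.08 ± 0.03 over the earlier grid (SD, n = 3 day 14 libraries). In the earlier grid 79 guides fell and 1 rose by limma, and 58 lay below -4. By mean change the short grid was in place 16 and the earlier grid in place 15 of 40, counted from the strongest loss. Both started low, so the lowest level allowed a median fall of only -5.78 in the short grid and -5.63 in the earlier grid. The means and places were not adjusted for this.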

How the data were processed

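Guide abundance was read by amplicon sequencing of genomic DNA. Bowtie 1.1.2, cutadapt 1.13 and the build GRCh38 are named, per the submitters' processing notes. The authors deposited a signal per guide and library, normalised in a way not given in the sources used here. In each A375 library 100% of the values less 1 were whole multiples of a single step, within 0.01 of a step. The other 3 tables were not used beyond counting their guides.

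Members were taken by number, and members, rows, columns and tests were chosen with earlier results of these data known. Log2 signal, as deposited and without a filter, entered limma 3.58.1 (R 4.3.3) for all 6211 guides, day 14 against day 0, with a trended variance prior. The log2 ratio of guides at the same place of grids 20 apart was fitted in the same way over all such pairs. The threshold was an adjusted p (Benjamini-Hochberg) of 0.05. Spreads over libraries are SDs, and means over members carry no test. Scripts were tested on simulated data. Steps are PCR reads without molecular identifiers, so bounds cover counting error only. Named guides were row 1, column 1, the last 10 members, the 5 lowest and 5 highest changes and up to 5 differing pairs per direction. Others named here (row 8's end and counterparts by place) follow from the alignment. Alternatives were scalings, pseudocounts, a minimum mean, variance priors, a replicate block, libraries left out, other absent places and, added after seeing the data, voom on the steps, the floor and the shift of row 8.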

Additional observations from a re-analysis of the deposited data

How the results depend on the processing

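The 82 members that fell numbered between 64 and 82 under all alternatives run. Over all 6211 guides 3181 fell, against 2149 with trimmed mean scaling and 2605 with total signal scaling. With the minimum mean 3121 of 6145 guides fell, and with a library left out 2908 to 3269 of all guides did. Of 120 members 101 passed the minimum mean of 50. Members that rose numbered 26 with trimmed mean scaling, 12 with total signal scaling, and 1 to 3 with a library left out. Over all guides, 101 rose, against 2412, 1137 and 60 with trimmed mean scaling, total signal scaling and no variance trend, and 43 to 143 with a library left out. The median change was -2.36 with trimmed mean scaling, -3.00 with total signal, -3.27 with the minimum mean, -2.53 and -3.57 with pseudocounts of 10 and 1, and -3.90 to -3.46 with a library left out. Scaled by the median of the guides after the grids it was -3.75, with 82 members lower and 3 higher. Trimmed mean scaling raises every change by 1.41. Among the named guides alone, it turned uid_4720 (0.90), uid_4721 (1.24), uid_4722 (1.36), uid_4724 (0.19), uid_4726 (0.58), uid_4753 (0.68), uid_4764 (1.21), uid_4786 (1.38), uid_4797 (0.64), uid_4818 (1.38), uid_4819 (1.23) and uid_4830 (1.31) above 0. The correlation with the earlier grid, 0.861 by number, was 0.907 with the minimum mean, 0.662 with the first place absent, 0.943 at the best place, and 0.823 to 0.858 with a library left out. The pairs with the member higher, 3 by number, numbered 1 with the minimum mean, 1 with a pseudocount of 10, 0 with the first or the best place absent, and 0 to 2 with a library left out; pairs with the member lower numbered 6 with the first place absent. The difference of uid_4807 turned to -0.50 and that of uid_4818 to -0.66 under both other alignments. Row 1 less row 10, 1.76 by number, was 0.95 and 1.56 with pseudocounts of 10 and 1, and 2.00 with the first place absent. Column 1 less column 11, 3.85 by number, was 2.36 and 3.52 with these pseudocounts, 0.71 with the first place absent and 5.41 at the best place. Same-numbered libraries deviated together at only 0.00355 to 0.0287 (whether a number marks a shared infection is not stated); with a replicate block 82 members fell, 2 rose and 2 pairs differed. The planned count models were not run, because the values are normalised signal; voom on the steps gave 82 lower and 3 higher members. The low step counts at day 14 limit the size of the deepest falls.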
